A study of Homo sapiens with 4 samples.

Results

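The genes described here are 31 that the transcription factors encoded by SREBF1 and SREBF2 are known to drive, or that control those factors, in cholesterol and fatty acid synthesis. They were taken by name as a list and grouped as 18 enzymes of sterol synthesis, 5 regulators, 1 sterol carrier and 7 enzymes of fatty acid synthesis. A member was measured where a probe set (a group of short probes read as 1 value) carried its symbol alone, and its brightest such probe set stood for it. This gave 28 of the 31 members, out of 19775 genes measured in all. CYP51A1 and FADS1 had probe sets that list another symbol beside theirs, and FDFT1 is not analysed here. MVD lay below the limit on dim genes (a signal of 70.5, the 40th percentile over all genes), so 27 members were tested among 11865 genes.

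RNA came from HEK293, a human embryonic kidney line transformed with adenovirus DNA, kept overnight in serum-free medium. One pair of arrays holds RNA of cells exposed for 2 h to 1 µM LPA (lysophosphatidic acid, a signalling lipid abundant in serum and sensed by G protein-coupled receptors), and the other pair that of cells labelled as untreated. Untreated titles include Vc, which the labels leave unexplained, and 1 protocol text stands for all 4 arrays. Replicate numbers 1 and 2 occur in both groups, and the labels do not say whether a number marks a culture, a passage or a day, nor whether replicates were grown apart. The p-values therefore reflect array-to-array spread that could be technical. Each array averages a whole culture, in which a change in the share of cells and a change in RNA per cell cannot be told apart.

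SREBP proteins are made as membrane-bound precursors in the endoplasmic reticulum, where SCAP escorts them and the INSIG proteins hold the pair back while sterols are plentiful. When sterols run low, SCAP carries the precursor to the Golgi, proteases release its N-terminal part, and that part enters the nucleus and binds sterol regulatory elements in promoters, commonly beside sites for NF-Y and SP1. The product of SREBF2 is best known for sterol synthesis and a main product of SREBF1 for fatty acid synthesis. INSIG1 is itself a target, which closes a feedback loop. Serum lipoproteins are a main outside source of sterol for cultured cells.

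Values are MAS5 signals, on a linear scale that the authors had set to a common level on each array. LPA replicate 2 stood apart from the other arrays by its lowest maximum signal (62508, against 93776 to 104012) and its highest ACTB 3′-to-5′ signal ratio (18.8, against 12.6 to 13.6), so counts are also given without it. That ACTB ratio was 12.6 or more on every array, while the GAPDH ratio ran from 1.22 (untreated replicate 2) to 1.38 (LPA replicate 2). Of 7 genes typical of HEK293, 6 lay above the limit on dim genes, among them VIM, NEFL and KRT18, and LHX1 lay below it. Of 10 markers measured for leukocytes, hepatocytes, adipocytes, fibroblasts and differentiated kidney, 9 lay below that limit by their mean over the arrays, and the fibroblast collagen COL1A1 (847 to 1103) lay above it. For adipocytes and hepatocytes, in which this pathway is highly active, PLIN1 read at most 9.53, ADIPOQ 45.5, ALB 35.8 and APOA1 126, the last on LPA replicate 1, where it alone of these values passed 70.5.

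Setting LPA against untreated cells asks whether the pathway's transcripts had moved by 2 h. No member of the pathway passed the test: limma on log2(signal + 1) gave 0 of 27 members an adjusted p under 0.05, as it gave 0 of 11865 genes in all (percent called, 0.0), and 0 members also without LPA replicate 2, where the lone LPA array was assumed to vary like the untreated arrays. An unadjusted p under 0.05 was found for 0 members and for 1.74% of all genes tested. The members' standard errors (SE) ran from 0.14 to 0.42 on the log2 scale, and the 95% interval of every member's difference included 0.

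Both LPA arrays read higher than both untreated arrays for NSDHL, INSIG1, FASN and ELOVL6, or 4 members (14.8%), where 14.4% of all genes did so, and lower for FDPS, LSS, EBP, SREBF2 and FADS2, or 5 members (18.5%), where 12.5% did. The members' median difference was -0.00049 and that of all genes 0.0092. Their median absolute difference was 0.15, against 0.15 over all genes.

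**Figure D1:**
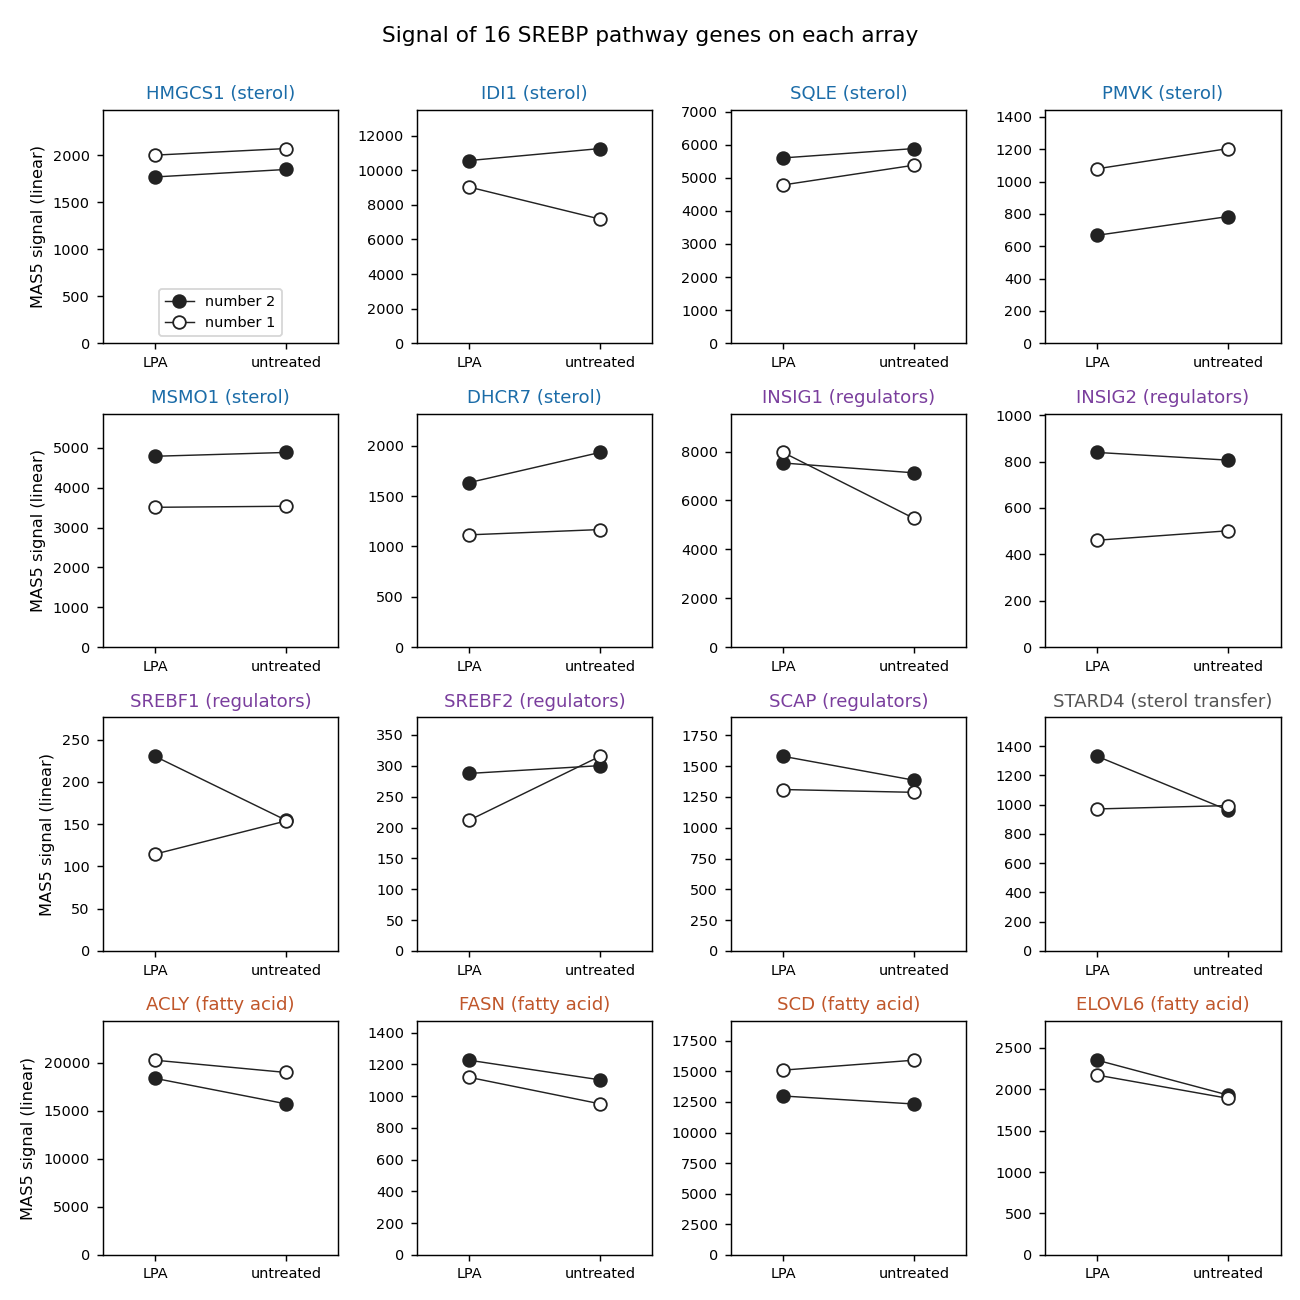
MAS5 signal (linear axis from 0) of 16 members on each array, LPA on the left and untreated on the right of each panel, with filled points for replicate number 2, open points for number 1 and a line joining arrays of the same number. INSIG2, DHCR7, MSMO1 and PMVK separate by replicate number, as do HMGCS1, IDI1, SQLE, SREBF1, SCAP, ACLY and SCD. INSIG1 is lowest on untreated replicate 1.

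The regulators gave the largest positive and 1 of the most negative differences among the members. INSIG1, which retains SCAP in the endoplasmic reticulum, read 7963 and 7531 on the LPA arrays against 5264 and 7129 on the untreated arrays, in the order of replicate numbers 1 and 2 as throughout. The groups did not overlap, but the 2 untreated arrays differed from each other by more than the LPA arrays did. Its log2 difference, given as LPA minus untreated with its SE, was 0.34 ± 0.18 (95% interval -0.068 to 0.74), made up of 0.60 within number 1 and 0.079 within number 2. Without untreated replicate 1 it was 0.12, and without untreated replicate 2 it was 0.56. INSIG2, the second retention protein, read 461 and 839 after LPA, against 501 and 806 untreated, and its groups overlapped widely (-0.032 ± 0.34).

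SREBF2, which encodes the factor of sterol synthesis, read 212 and 288 on the LPA arrays against 315 and 300.2 on the untreated arrays, so that both LPA values lay lower (-0.32 ± 0.30). Nearly all of this lay in number 1, at -0.57, against -0.062 in number 2. SREBF1 read 115 and 230.3 after LPA, against 154 and 155 untreated. The untreated values were nearly equal and the LPA values lay on either side of them, which gave -0.42 in number 1 and 0.57 in number 2, a mean of 0.075 ± 0.42 with the largest SE of all members. SCAP, the escort protein, read 1310.4 and 1580.0 after LPA, against 1288 and 1386 untreated (0.11 ± 0.19). STARD4, which carries cholesterol between membranes, read 971 and 1331 after LPA, against 994 and 962 untreated. LPA replicate 2 alone stood above the other 3 arrays, and the difference was 0.22 ± 0.21.

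Enzymes of early sterol synthesis, which build isoprenoid units from acetyl-CoA, showed no shared direction, with 3 of 6 differences positive. HMGCS1, which makes the precursor of mevalonate, read 1999 and 1767 after LPA, against 2069 and 1847 untreated, a difference of -0.056 ± 0.17. Its interval of -0.45 to 0.33 included differences in either direction. The thiolase ACAT2 differed by 0.045 ± 0.17, with 0.26 in number 1 and -0.17 in number 2. Mevalonate kinase (MVK) differed by 0.13 ± 0.25 and phosphomevalonate kinase (PMVK) by -0.19 ± 0.30. IDI1, the isomerase of isopentenyl diphosphate, read 9032 and 10562 after LPA, against 7179 and 11256 untreated, again with untreated replicate 1 lowest (0.12 ± 0.22). FDPS, which joins these units to farnesyl diphosphate, read 9815 and 9937 after LPA, against 10643 and 11531 untreated. Both LPA values were lower by a small amount (-0.17 ± 0.14).

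Later enzymes, from squalene to cholesterol, had negative differences in 7 of 9, without any passing the test. The count rested on single arrays: it was 3 of 9 without LPA replicate 1 and 4 of 9 without untreated replicate 2, against 7 of 9 without either other array. It was 5 of 9 with median centring of the arrays, where TM7SF2 and MSMO1 turned, and 6 of 9 with the mean of all probe sets of a gene, where EBP turned to 0.43. The turn of EBP rested on a probe set below the limit on dim genes (2.35), as the 3 above that limit gave negative differences. SQLE, the squalene epoxidase, read 4783 and 5600.2 after LPA, against 5379.9 and 5883 untreated (-0.12 ± 0.16). LSS, which folds the epoxide into the first sterol, read 1978 and 1638 after LPA, against 2218 and 2131 untreated, with no overlap between groups and the most negative difference of the sterol enzymes (-0.27 ± 0.17). EBP, a sterol isomerase, also lay lower on both LPA arrays (3069 and 2695 after LPA, against 3140.3 and 3426 untreated). Its difference of -0.19 ± 0.16 came mainly from number 2. NSDHL, which acts in the removal of methyl groups from the sterol ring, was the sterol enzyme with no overlap in the other direction, at 2192 and 2822 after LPA, against 1928 and 2151 untreated (0.29 ± 0.18). MSMO1, the oxidase of the same step, read 3511 and 4792 after LPA, against 3537 and 4888 untreated, a difference of -0.020 ± 0.21. HSD17B7, a ketosteroid reductase, differed by 0.15 ± 0.17, the desaturase SC5D by -0.064 ± 0.20, the sterol reductase TM7SF2 by -0.0064 ± 0.32 and DHCR7, which makes cholesterol in the last step of 1 branch, by -0.15 ± 0.28. For TM7SF2 the 2 numbers went opposite ways, at -0.36 in number 1 and 0.34 in number 2.

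Among the fatty acid enzymes, FASN and ELOVL6 read higher on both LPA arrays and FADS2 lower. FASN, the fatty acid synthase, read 1118 and 1226 after LPA, against 951 and 1102 untreated (0.19 ± 0.19). ELOVL6, which lengthens its product, read 2171 and 2351 after LPA, against 1889.9 and 1929 untreated (0.24 ± 0.16), with differences of 0.20 and 0.28 in numbers 1 and 2. FADS2, a desaturase of polyunsaturated fatty acids, read 231 and 287 after LPA, against 296 and 393 untreated, a difference of -0.41 ± 0.30, the most negative of all members at the brightest probe set. With the mean of both its probe sets, 1 of them dim, the difference turned to 0.12. ACLY, which makes cytosolic acetyl-CoA from citrate, read 20245 and 18359 after LPA, against 18971 and 15708 untreated (0.16 ± 0.16). ACACA, the carboxylase that makes malonyl-CoA, differed by 0.032 ± 0.21. SCD, the desaturase that makes oleate, read 15101 and 12986 after LPA, against 15913 and 12331 untreated, and its group means on the log2 scale were nearly equal (-0.00049 ± 0.18).

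**Figure D2:**
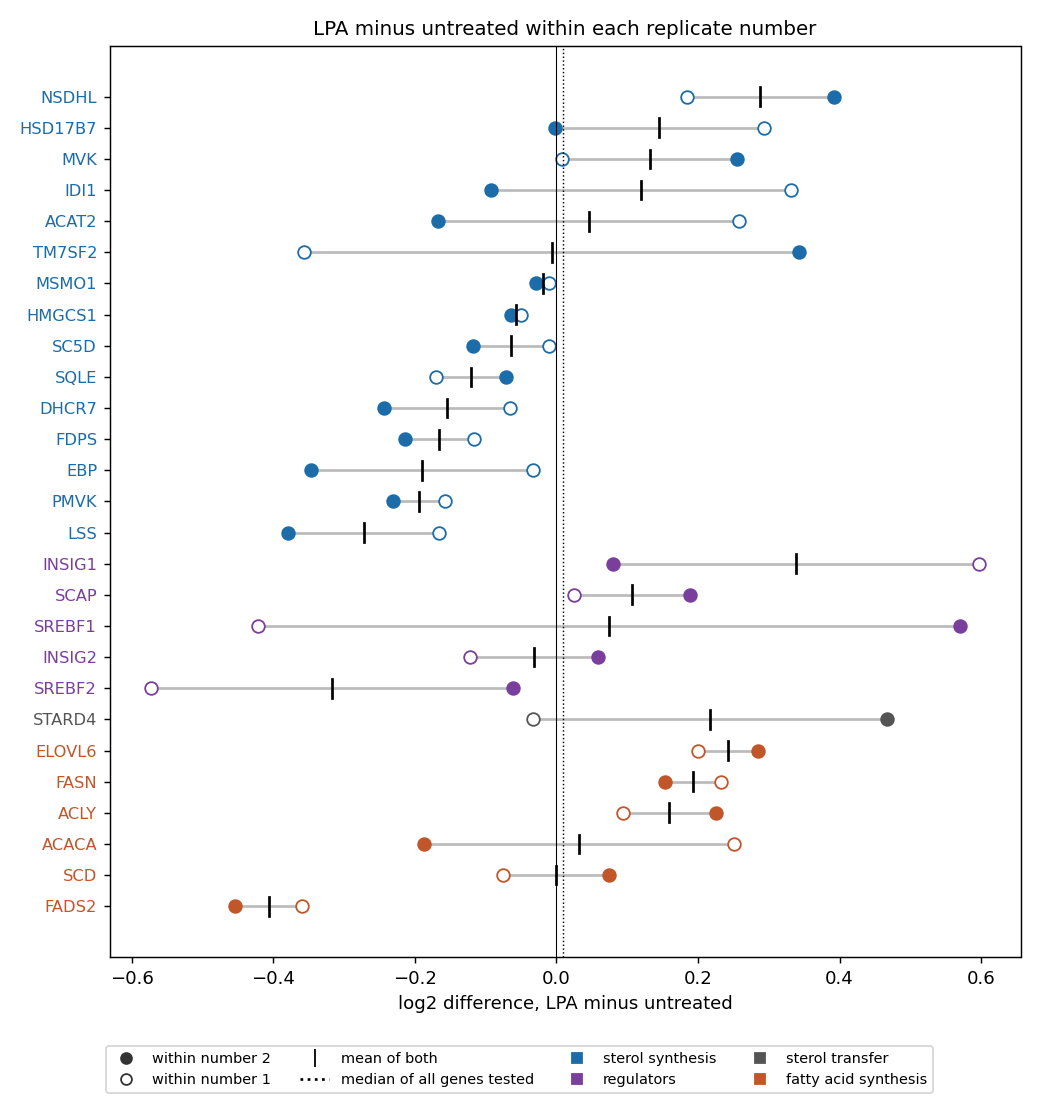
Log2 difference of each tested member, LPA minus untreated, within replicate number 2 (filled) and number 1 (open), with a tick at their mean and a dotted line at the median of all genes tested (0.0092). Colours mark the branches. For 9 of the 27 members the 2 numbers lie on opposite sides of 0, as for SREBF1 and TM7SF2. Over all genes tested they do so for 5524 of 11865.

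Set side by side, the sterol branch lay slightly below the fatty acid branch. The median difference of the 15 sterol enzymes was -0.056, with 10 of 15 negative (7 without LPA replicate 1 or untreated replicate 2), and that of the 6 fatty acid enzymes 0.096, with 2 of 6 negative (1 to 3 when 1 array was left out), a gap of -0.15. Within number 1 the medians were -0.033 and 0.15, and within number 2 they were -0.092 and 0.11. Over all genes the medians were -0.0014 in number 1 and 0.025 in number 2. The gap is a description of these members with no test, and it depended on the arrays and on the probe sets. Without LPA replicate 1 it turned to 0.12 and without untreated replicate 2 to 0.073, while the other 2 omissions gave -0.25 (LPA replicate 2) and -0.32 (untreated replicate 1). With the mean of all probe sets of a gene in place of the brightest it shrank to -0.016. With that mean, 9 of 15 sterol enzymes and 3 of 6 fatty acid enzymes were negative.

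The members, like genes in general, separated more by replicate number than by treatment. In the arrays numbered 2 against those numbered 1, each with 1 LPA and 1 untreated array, limma gave an adjusted p under 0.05 to 4 of 27 members (14.8%), where it did so for 445 of 11865 genes (3.75%). The calls were DHCR7, INSIG2 and MSMO1, higher in number 2, and PMVK, lower in number 2, where 1.66% of all genes were called higher and 2.09% lower. An unadjusted p under 0.05 was found for 7 of 27 members (25.9%) and for 19.9% of all genes. These shares are not of like genes, as the members' median SE here was 0.14, against 0.18 over all genes. With a filter on dim genes at the 60th percentile, 538 of 7910 genes were called. Both number 2 values lay above both number 1 values for 10 members (37.0%, against 26.5% of all genes) and below them for 5 (18.5%, against 24.1%).

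DHCR7 read 1633 (LPA) and 1933 (untreated) on the number 2 arrays, against 1115 and 1167 on the number 1 arrays. Both treatments showed the same order, and the log2 difference, number 2 minus number 1, was 0.64 ± 0.14 (limma adjusted p = 0.0323), or 1.56-fold. INSIG2 read 839 (LPA) and 806 (untreated) on the number 2 arrays, against 461 and 501 on the number 1 arrays, a difference of 0.77 ± 0.18 (limma adjusted p = 0.0375) and the largest among the members at 1.71-fold. MSMO1 read 4792 (LPA) and 4888 (untreated) on the number 2 arrays, against 3511 and 3537 on the number 1 arrays. Its differences of 0.45 on the LPA arrays and 0.47 on the untreated arrays were nearly equal (0.46 ± 0.11, limma adjusted p = 0.0431). PMVK went the other way, at 668 (LPA) and 784 (untreated) on the number 2 arrays, against 1079 and 1204 on the number 1 arrays (-0.66 ± 0.16, limma adjusted p = 0.0452).

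These calls stood close to the threshold. Leaving out 1 array left 0 of the 4 calls without LPA replicate 1, 1 without LPA replicate 2 (DHCR7, adjusted p = 0.0407), 0 without untreated replicate 1 and 1 without untreated replicate 2 (PMVK, 0.0436), and 0 members were called without a filter on dim genes, with the mean of all probe sets of a gene, or in limma without an intensity trend, which called 0 genes. With quantile normalization PMVK was lost (limma adjusted p = 0.0518) and the other 3 were kept. Over all genes the count was 39 without untreated replicate 1, and 360 to 631 with another array left out. The sign of all 4 differences was the same under each alternative tried, and the ranges were 0.47 to 0.76 for DHCR7, 0.70 to 0.83 for INSIG2, 0.39 to 0.47 for MSMO1 and -0.77 to -0.54 for PMVK. With median centring of the arrays the split of all called genes turned from 197 higher and 248 lower to 81 higher and 283 lower, and of the members only PMVK was called. The median signal of the arrays also differed by number, at 72.3 (LPA) and 76.1 (untreated) on the number 2 arrays, against 70.7 and 70.3 on the number 1 arrays.

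**Figure D3:**
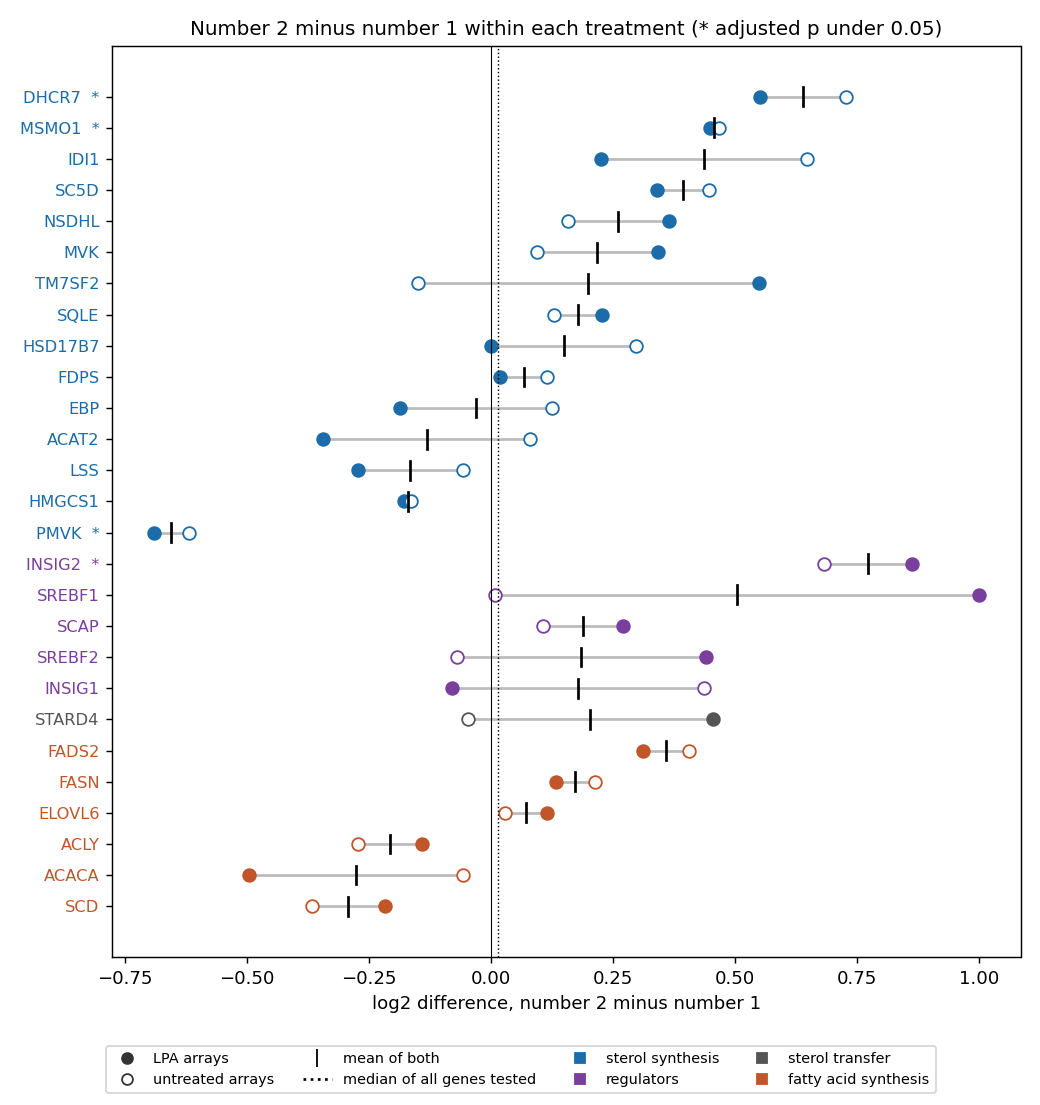
Log2 difference of each tested member, number 2 minus number 1, on the LPA arrays (filled) and on the untreated arrays (open), with a tick at their mean and a dotted line at the median of all genes tested (0.014); asterisks mark an adjusted limma p under 0.05. DHCR7, MSMO1, IDI1 and SC5D lead the sterol enzymes, PMVK lies far below them, and ACLY, ACACA and SCD lie below 0 on both treatments.

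The next sterol enzymes, SC5D and IDI1, did not pass in this fit, and their calls depended on the setting. SC5D, which makes the substrate of DHCR7, read 4159.7 (LPA) and 4514 (untreated) on the number 2 arrays, against 3287 and 3313 on the number 1 arrays (0.39 ± 0.11, limma adjusted p = 0.0741). IDI1 read 10562 (LPA) and 11256 (untreated) on the number 2 arrays, against 9032 and 7179 on the number 1 arrays (0.44 ± 0.14, limma adjusted p = 0.0989). SC5D passed with a filter on dim genes at the 60th percentile (limma adjusted p = 0.0464), IDI1 passed with quantile normalization (0.0484), and both passed with treatment as a term (0.0177 for SC5D and 0.0301 for IDI1). With the mean of all probe sets of a gene both differences turned negative, to -0.097 for SC5D and -0.072 for IDI1. For SC5D this rested on a second probe set far below the limit of 70.5. It read 7.34 (LPA) and 5.74 (untreated) on the number 2 arrays, against 7.87 and 13.3 on the number 1 arrays. SQLE (0.18 ± 0.12) and 2 others also lay higher on both number 2 arrays at the brightest probe set. These were MVK, at 589.6 (LPA) and 494 (untreated) on the number 2 arrays, against 465 and 462 on the number 1 arrays (0.22 ± 0.20), and HSD17B7, at 2499.8 (LPA) and 2504 (untreated) on the number 2 arrays, against 2498 and 2039 on the number 1 arrays (0.15 ± 0.13). The HSD17B7 values were nearly equal on 3 of the 4 arrays, with untreated replicate 1 lowest. HMGCS1 lay lower on both number 2 arrays, at 1767 (LPA) and 1847 (untreated) on the number 2 arrays, against 1999 and 2069 on the number 1 arrays (-0.17 ± 0.12). The remaining 6 sterol enzymes overlapped, from -0.17 for LSS to 0.26 for NSDHL. Of the regulators, SCAP (0.19 ± 0.13) and SREBF1 (0.50 ± 0.36) lay higher on both number 2 arrays. For SREBF1 this was 1.00 on the LPA arrays and 0.009 on the untreated arrays, so that nearly all of it came from the LPA arrays. SREBF2 differed by 0.18 ± 0.28, INSIG1 by 0.18 ± 0.17 and STARD4 by 0.20 ± 0.17, each with overlap.

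Fatty acid enzymes were split, with 0 past the threshold. SCD read 12986 (LPA) and 12331 (untreated) on the number 2 arrays, against 15101 and 15913 on the number 1 arrays (-0.29 ± 0.13, limma adjusted p = 0.229). ACLY differed by -0.21 ± 0.14 and ACACA, at 1159.7 (LPA) and 1321 (untreated) on the number 2 arrays, against 1637 and 1375 on the number 1 arrays, by -0.28 ± 0.14. All 3 were lower on both number 2 arrays at the brightest probe set. The other SCD probe sets above the limit on dim genes gave 0.011, 0.14 and -0.19. FADS2 (0.36 ± 0.28), FASN (0.17 ± 0.15) and ELOVL6 (0.072 ± 0.14) had positive differences with overlapping values. The median of the 15 sterol enzymes was 0.18, that of the 6 fatty acid enzymes -0.067 and that of all genes 0.014. On the LPA arrays alone the sterol and fatty acid medians were 0.23 and -0.013, and on the untreated arrays 0.13 and -0.014. The gap between the branches was 0.25 overall. It was 0.083 without LPA replicate 1 and 0.13 without untreated replicate 2, and -0.015 with the mean of all probe sets of a gene.

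The promoters of the 4 members called between replicate numbers, and that of SREBF2, are shown because SREBP, NF-Y and SP1 are known to bind side by side in this pathway. Each window runs from 250 bases before to 50 after the gene's start in RefSeq on GRCh38.p14. They lie at chr22:41832855-41833154 on the plus strand (SREBF2), chr11:71448344-71448643 on the minus strand (DHCR7), chr4:165327419-165327718 on the plus strand (MSMO1), chr2:118088221-118088520 on the plus strand (INSIG2) and chr1:154936670-154936969 on the minus strand (PMVK). Capitals mark matches on either strand to TCACNCCAC (1 form of the sterol regulatory element), CCAAT (the NF-Y motif) or GGGCGG (the GC box of SP1), and neighbouring or overlapping matches run together.
SREBF2: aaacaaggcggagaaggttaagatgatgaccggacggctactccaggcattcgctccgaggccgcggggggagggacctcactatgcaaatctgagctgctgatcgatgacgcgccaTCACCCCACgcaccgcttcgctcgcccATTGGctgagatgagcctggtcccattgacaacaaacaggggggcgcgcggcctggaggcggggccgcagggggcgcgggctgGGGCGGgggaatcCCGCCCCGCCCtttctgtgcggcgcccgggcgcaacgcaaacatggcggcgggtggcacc
DHCR7: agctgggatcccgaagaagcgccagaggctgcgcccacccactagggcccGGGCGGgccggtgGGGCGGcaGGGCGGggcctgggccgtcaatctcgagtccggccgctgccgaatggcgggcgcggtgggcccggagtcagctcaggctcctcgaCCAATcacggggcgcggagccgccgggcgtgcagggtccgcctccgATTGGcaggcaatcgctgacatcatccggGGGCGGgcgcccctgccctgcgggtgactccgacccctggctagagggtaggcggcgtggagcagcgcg
MSMO1: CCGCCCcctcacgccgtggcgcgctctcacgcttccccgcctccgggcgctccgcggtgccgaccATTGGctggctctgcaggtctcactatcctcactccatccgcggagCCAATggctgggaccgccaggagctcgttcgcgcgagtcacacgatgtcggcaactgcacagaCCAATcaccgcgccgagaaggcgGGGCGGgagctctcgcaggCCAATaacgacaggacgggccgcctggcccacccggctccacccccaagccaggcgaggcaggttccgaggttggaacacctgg
INSIG2: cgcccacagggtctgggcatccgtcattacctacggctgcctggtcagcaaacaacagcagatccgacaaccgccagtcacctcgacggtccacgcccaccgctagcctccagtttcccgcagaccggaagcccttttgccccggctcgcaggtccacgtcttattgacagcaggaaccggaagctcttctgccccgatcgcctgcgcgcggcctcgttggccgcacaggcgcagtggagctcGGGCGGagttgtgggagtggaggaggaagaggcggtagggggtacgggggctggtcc
PMVK: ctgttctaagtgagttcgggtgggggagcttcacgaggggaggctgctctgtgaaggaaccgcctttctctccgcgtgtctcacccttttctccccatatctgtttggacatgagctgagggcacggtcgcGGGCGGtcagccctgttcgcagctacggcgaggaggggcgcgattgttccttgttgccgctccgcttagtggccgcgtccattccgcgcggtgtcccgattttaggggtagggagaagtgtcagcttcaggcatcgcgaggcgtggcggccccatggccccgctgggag

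The SREBF2 window held the sterol element at position -133 from the start, with a CCAAT match at -106 and 3 GC box matches, 2 of which overlap. It was the only member window with that element, and SREBF2 was not called between replicate numbers. The windows of DHCR7, MSMO1, INSIG2 and PMVK, which were called, did not hold it. MSMO1 held 4 CCAAT matches and DHCR7 held 2, while the INSIG2 and PMVK windows held 0 CCAAT matches and 1 GC box each. Of 27 member windows in the table, 1 held TCACNCCAC (3.70%, against 1.15% of 27305 windows of the same length). CCAAT stood in 17 (63.0%, against 35.7% of all windows and 36.4% of those of protein-coding genes) and GGGCGG in 25 (92.6%, against 44.6% and 58.5%). A match of letters is not evidence of binding, and windows without one may hold other forms of these sites. FASN, ACAT2, SQLE and FDFT1 were not among the 27.

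Where a gene had several probe sets above the limit on dim genes, they often disagreed on LPA. Of 15 such members, all probe sets had the sign of the brightest in 5 for LPA minus untreated and in 8 for number 2 minus number 1. The other INSIG1 probe sets read 4767 and 3131 after LPA, against 3457 and 4057 untreated (0.045) and 1660.0 and 1852 after LPA, against 1216 and 1481 untreated (0.39). On the second of these both LPA values were above the untreated ones, while on the first LPA replicate 2 was the lowest of the 4 arrays. A dim HMGCS1 probe set read 131 and 118 after LPA, against 53.8 and 70.5 untreated, a difference of 1.00, against -0.056 at the brightest. Its values lay near the limit of 70.5.

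The fatty acid enzymes that stood higher after LPA had a positive difference at 1 of 3 probe sets for ELOVL6, whose others gave -0.065 and -0.093, and at both for FASN, whose second read 121 and 183 after LPA, against 95.8 and 139 untreated (0.37). For ACLY the brightest probe set gave 0.16 and the others -0.15 and -0.038, and for ACACA the 2 gave 0.032 and -0.29. Among the genes that read lower after LPA, a second LSS probe set gave 0.12, and 2 further SREBF2 probe sets gave -0.39 and 0.093. The 3 EBP probe sets above the limit all gave negative differences, at -0.19, -0.19 and -0.24. Between replicate numbers, both DHCR7 probe sets were higher in number 2 (0.64 and 0.30), and both NSDHL differences were positive (0.26 and 0.40). The 4 IDI1 probe sets gave 0.44, 0.24, -0.34 and -0.63, the brightest first. Those of SQLE, in the same order, gave 0.18, -0.22, 0.18 and -0.013, and those of HMGCS1 gave -0.17 and 0.11. INSIG2, MSMO1 and PMVK had 1 probe set above the limit each. The brightest IDI1 and HSD17B7 probe sets are of a class the maker marks as able to bind related transcripts, so their values may include those. The second FASN probe set, the IDI1 ones that gave 0.24 and -0.34, and an SCD probe set other than the brightest are of the same class.

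**Figure D4:**
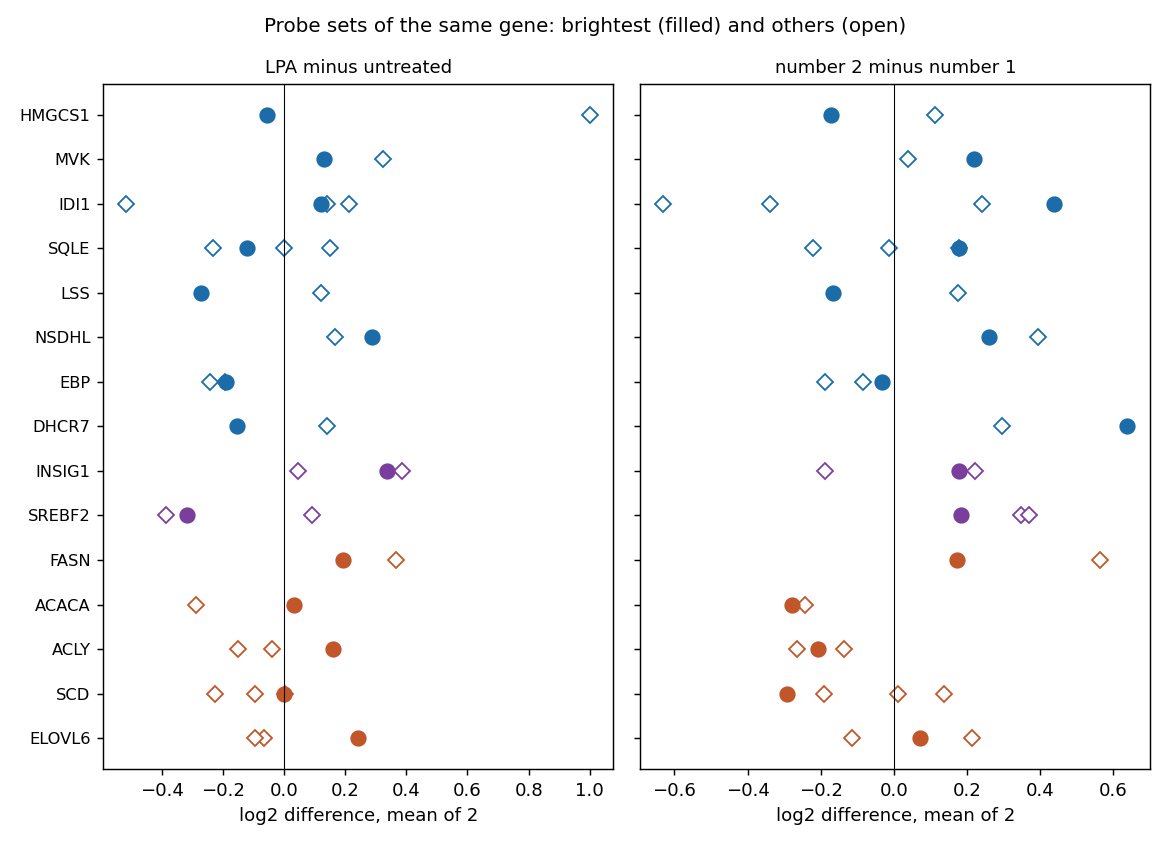
Log2 differences of every probe set above the limit on dim genes for the 15 members with several, LPA minus untreated on the left and number 2 minus number 1 on the right, each the mean of its 2 within-pair differences. Filled circles are the brightest probe set and open diamonds the others; HMGCS1 and IDI1 show wide spreads, and the 2 DHCR7 probe sets lie on the same side in the right panel.

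Genes around the pathway gave 0 calls for LPA among 33 tested of 38 listed, with 17 positive and 16 negative differences and a median of 0.0066. They cover SREBP processing, sterol export, sterol trafficking, other isoprenoid products, the supply of acyl chains and fatty acid oxidation, and the 2 genes of smallest p in each are named. In SREBP processing these were MBTPS2 (-0.14), a protease that releases SREBP, and FAF2 (-0.092), which acts in the breakdown of INSIG1. In sterol export they were the lipid exporters ABCA1 (0.52) and ABCG1 (0.23), and in trafficking NPC2 (-0.20), which moves cholesterol out of lysosomes, and TMEM97 (0.098). For isoprenoids they were PDSS1 (0.18), which makes the side chain of ubiquinone, and FNTA (-0.14), a subunit of protein prenyltransferases. For acyl supply they were ACSS2 and HSD17B12 (-0.22), which acts in fatty acid elongation, and for oxidation HADHA (-0.32) and ACADVL (0.17), both mitochondrial enzymes. ACSS2, which makes acetyl-CoA from acetate, read 258 and 197 after LPA, against 325 and 336 untreated, with no overlap and a difference of -0.55 ± 0.30. HADHA read 4061 and 3577 after LPA, against 5088 and 4434 untreated, also with no overlap (-0.32 ± 0.16). ABCA1 read 81.1 and 179 after LPA, against 68.3 and 103 untreated, with overlap and an SE of 0.51. Its untreated replicate 1 value lay below the limit of 70.5, and its difference ran from -0.047 to 1.09 under the alternative settings. Of these 12 genes, 6 changed sign under some alternative setting.

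Between replicate numbers 1 of these 33 genes (3.03%) was called, where 3.75% of all genes were. CPT1A, which admits fatty acids to mitochondria for oxidation, read 1041 (LPA) and 1094 (untreated) on the number 2 arrays, against 622 and 714 on the number 1 arrays, a difference of 0.68 ± 0.16 (limma adjusted p = 0.0409). The call was lost without each of the 4 arrays in turn (adjusted p = 0.0837 to 0.136), and with the mean of all CPT1A probe sets the difference was 0.24. The other genes of smallest p did not pass. In SREBP processing they were FAF2 (-0.27) and RNF139 (-0.17), and in sterol export MYLIP (0.87), a ligase induced by sterols, and NR1H3 (-0.55), a nuclear receptor for oxidised sterols. The MYLIP difference was 1.53 on the LPA arrays and 0.21 on the untreated arrays, so most of it came from the LPA arrays. Trafficking gave OSBP (-0.38), a sterol exchanger between membranes, and TMEM97 (0.31), and isoprenoids gave GGPS1 (0.30), which makes geranylgeranyl diphosphate, and FNTA (0.21). Acyl supply gave SLC25A1 (0.31), the exporter of mitochondrial citrate, and ACSL1 (0.23), and the second oxidation gene was ACADM (0.25).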

How the data were processed

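Expression was measured on 4 Affymetrix arrays, 2 of HEK293 cells given LPA and 2 of untreated cells. The deposited values are intensity values per probe set, made by the authors with MAS5 per the submitters' processing notes. For MAS5, no version or setting is given in the labels. The mean after trimming 2% at each end was 500.1 on every array, so arrays had been scaled one by one, and no further normalization was applied. Of 54675 probe sets, 41097 carried 1 symbol in the platform annotation, 1801 several and 11777 none.

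Genes were represented by their brightest probe set by mean log2(signal + 1) over all arrays, and those below the 40th percentile (a signal of 70.5) were left out. LPA was compared with untreated, and replicate number 2 with number 1, with limma 3.58.1 in R 4.3.3 (lmFit, eBayes with an intensity trend, two-sided, Benjamini-Hochberg over 11865 genes, threshold 0.05), with no other term. The LPA fit was also run on simulated data with independent noise on each array and no effect of replicate number. The comparison of replicate numbers was not simulated. A fold is on the log2(signal + 1) scale, and an SE is limma's moderated value. The number of arrays limits the precision (median SE over all genes 0.24 for LPA, 0.18 for replicate number).

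The members, lists, motifs and tests were chosen with earlier results of these data known. The rule for values on every array took members with no overlap between groups, the 3 of smallest p in each comparison and 12 fixed members, and the rest by differences. For lists around the pathway it took the 2 genes of smallest p. Alternatives were another scaling, pseudocount, filter, probe set summary, trend and block, and leaving out each array. Promoter sequences are from RefSeq (GRCh38.p14), where 27 of 31 members matched by symbol.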

Additional observations from a re-analysis of the deposited data

How the results depend on the processing

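For LPA minus untreated, 0 members were called under each of the 14 alternatives. With the replicate number as a block (the replicate block) 32 genes passed, and 4 when quantile normalization was added, none of them members. Deviations of same-numbered arrays from their group means correlated at r = 0.33 across genes, but there are only 2 pairs and the labels do not say what the number marks. Leaving out 1 array gave 0 to 3 genes. The fatty acid median was 0.13 with quantile normalization (with or without the replicate block), 0.13 with median centring, 0.16 with a filter at the 60th percentile and 0.0091 with the mean of all probe sets, where the sterol median was -0.0065. The branch gap was -0.20, -0.22 and -0.016 with quantile normalization, that filter and that mean. Leaving out 1 array gave -0.010 to 0.16 (fatty acid), -0.18 to 0.11 (sterol) and -0.32 to 0.12 (gap). The cause of these shifts was not tested.

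For number 2 minus number 1, with treatment as a term (the replicate block of that comparison), 1382 genes and 6 members passed, the 4 above with IDI1 and SC5D, and 1184 genes with quantile normalization added. Counts fell to 219 genes and 0 members without a filter, 12 and 0 with the mean of all probe sets, and 0 and 0 without an intensity trend, where 1869 genes had an unadjusted limma p under 0.05. Median centring left 1 member, and leaving out 1 array gave 39 (without untreated replicate 1) to 631 genes and 0 to 1 members. The sterol median was 0.11 with median centring, -0.029 with the mean of probe sets and 0.093 to 0.17 leaving out 1 array. The fatty acid median was -0.027 with quantile normalization (with or without the block), -0.14 with median centring, -0.21 with the filter at the 60th percentile, -0.013 with the mean of probe sets and -0.14 to 0.019 leaving out 1 array. The gap was 0.37 with that filter, -0.015 with that mean and 0.083 to 0.31 leaving out 1 array.

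Single members changed sign 12 times for LPA and 4 times for replicate number under the 10 other settings, and 24 and 8 times when 1 array was left out. For LPA this happened with the mean of probe sets for HMGCS1 (0.47), EBP (0.43), FADS2 (0.12), ACACA (-0.13), IDI1 (-0.011) and ACLY (-0.010), with median centring for TM7SF2 (0.027), MSMO1 (0.014), SCD (0.033) and INSIG2 (0.0013), and with quantile normalization for SCD (0.087, also with the block). For replicate number it happened with the mean of probe sets for SC5D (-0.097), MVK (-0.074) and IDI1 (-0.072) and with median centring for FDPS (-0.0052). Ranges that crossed 0 when 1 array was left out were, for LPA, HMGCS1 -0.15 to 0.032, ACAT2 -0.13 to 0.22, MVK -0.039 to 0.30, PMVK -0.54 to 0.15, IDI1 -0.20 to 0.44, TM7SF2 -0.28 to 0.27, MSMO1 -0.25 to 0.21, HSD17B7 -0.0029 to 0.29, SC5D -0.29 to 0.16, DHCR7 -0.52 to 0.21, INSIG2 -0.46 to 0.40, SCAP -0.028 to 0.24, SREBF1 -0.43 to 0.57, STARD4 -0.010 to 0.44, ACACA -0.22 to 0.28, SCD -0.18 to 0.18. For replicate number they were FDPS -0.041 to 0.17, LSS -0.36 to 0.024, EBP -0.20 to 0.14, INSIG1 -0.12 to 0.48, SREBF2 -0.10 to 0.47, STARD4 -0.030 to 0.44, ELOVL6 -0.070 to 0.21. Among the named genes around the pathway, 6 of 12 changed sign under an alternative for LPA and 1 of 12 for replicate number. Dim genes lie nearest to background, where log2 differences are least certain.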

Other observations

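Some probe sets of members lay below the limit on dim genes and entered the values above only through the mean of all probe sets of a gene or, for MVD, the fit with no filter, so their own values are given without a test. A dim EBP probe set read 94.7 and 90.0 after LPA, against 23.2 and 12.8 untreated, with no overlap between the groups, a log2 difference of 2.35, while the 3 brighter EBP probe sets gave negative differences. MVD, which completes the making of isopentenyl diphosphate, read 60.5 and 5.0 after LPA, against 21 and 48.4 untreated, so that LPA replicate 2 was lowest and LPA replicate 1 highest. A second FADS2 probe set read 29.1 and 7.39 after LPA, against 5.26 and 15.6 untreated, and a second SREBF1 probe set 29.6 and 28.7 after LPA, against 35.1 and 26.9 untreated, with overlapping groups in both.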
